A study of Mus musculus with 6 samples.

Results

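The lysosome is the acidic compartment in which macrophages break down what they take up, and 43 genes that build and equip it are described here. They comprise 16 genes of the vacuolar proton pump (V-ATPase) and its accessory proteins, 7 genes of lysosomal membrane proteins, and 20 genes of lysosomal hydrolases with their cofactors. The genes were chosen by symbol, transcripts sharing a symbol were summed, and all 43 were found among the 21912 gene symbols of the mRNA table. RNA from cultured mouse macrophages had been sequenced in 3 libraries labelled M and 3 labelled control. The series concerns macrophages given oxidised low-density lipoprotein (ox-LDL), the cargo that turns them into lipid-filled foam cells. The labels do not spell out M, and one extraction text mentioning ox-LDL is attached to the M and the control libraries alike, so M is taken as the ox-LDL group without being named as such. The sources used here give no strain, age, dose, exposure time or origin of the cells. Whether replicates were separate cultures is not stated either, and each p-value therefore reflects only how far these libraries scatter, possibly for technical reasons.

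The V-ATPase is a rotary pump. Its cytosolic V1 sector hydrolyses ATP and its membrane V0 sector moves protons into the lysosome, and the low pH that results is what most lysosomal hydrolases need. In foam cells this machinery handles lipoprotein particles, whose cholesteryl esters, glycolipids and proteins are cleaved in the lumen, while heavily glycosylated membrane proteins line and protect the limiting membrane. Transcription factors TFEB and TFE3 are known to drive many of these genes through an E-box element called CLEAR.

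Values are FPKM, fragment numbers corrected for the length of the transcript and the size of the library, which allow levels to be compared between genes. Summed FPKM lay between 375467 and 390581 per library, Pearson's r over the tested genes was 0.990 to 0.993 within a group and 0.961 to 0.968 between groups, and a rough depth from the steps between low values ranged from 0.878 to 1.03 relative to control 1. The 10 of 11 macrophage markers that averaged at least 1 FPKM included Csf1r, Adgre1, Cd68 and Lyz2, while Mertk did not reach it. That list summed to between 7914 and 8191 FPKM in M libraries and between 6229 and 6642 in control libraries. Epithelial markers were all listed at 0, and the summed markers of fibroblasts (0.480 to 0.745 FPKM in M, 0.551 to 0.657 in control), of B cells (0.0618 to 0.126 in M, 0.0492 to 0.210 in control) and of neutrophils (0.541 to 0.930 in M, 0 to 0.191 in control) stayed under 1 FPKM. Endothelial markers summed to between 1.01 and 1.48 FPKM in M and 1.13 and 1.59 in control, those of T and NK cells (almost all from Lck) to between 3.65 and 3.83 in M and 2.22 and 2.69 in control, and those of dendritic cells to between 1.59 and 2.05 in M and 2.56 and 3.44 in control. The part of these differences in the results below was not tested.

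Promoter stretches are shown for 6 of the 11 genes whose window holds CACGTG, the core of the CLEAR element. They were picked with the calls known: Gla, Cln3, Atp6v1a, Gaa and Atp6v0d1 are the 5 that were called higher in M, and Lamp1, which was not called, holds the most copies. The 5 not shown (Atp6v0b, Atp6v0e, Glb1, Naglu and Arsa) were not called either, so the stretches shown say nothing of how often the motif goes with a call. They come from RefSeq promoter windows (250 bases before to 50 after the start) on build GRCm38.p6, which differs from the mm9 build named for the deposited values. All are written 5′ to 3′ on the gene's strand. Capitals mark CACGTG and, where present, the longer TCACGTGA around it, with a G before and a C after it in Cln3. Gla is shown at chrX:134601181-134601245 (minus strand), Cln3 at chr7:126583332-126583401 (minus), Atp6v1a at chr16:44139360-44139419 (minus), Gaa at chr11:119267798-119267852 (plus), Lamp1 at chr8:13159086-13159160 (plus) and Atp6v0d1 at chr8:105566053-105566082 (minus).
Gla: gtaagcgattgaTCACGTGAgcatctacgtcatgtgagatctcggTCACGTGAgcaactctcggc
Cln3: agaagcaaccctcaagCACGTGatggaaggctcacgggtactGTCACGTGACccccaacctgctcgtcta
Atp6v1a: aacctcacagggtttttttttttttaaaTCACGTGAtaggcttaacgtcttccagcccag
Gaa: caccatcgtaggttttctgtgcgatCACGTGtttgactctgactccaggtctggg
Lamp1: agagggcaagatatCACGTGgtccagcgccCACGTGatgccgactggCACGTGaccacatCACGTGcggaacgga
Atp6v0d1: aggccctactgcggTCACGTGAgacgcggt

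Among the 43 genes, the proton pump genes were slightly but broadly higher in M macrophages. Most of the membrane protein genes were not called, and the hydrolases went both ways. Related genes outside the 43 did not share this contrast: 2 of 11 other pump genes tested were higher, against 15 of 27 other membrane protein genes. A gene was called at a limma adjusted p under 0.05 over all 10390 genes tested. Of the 43 genes, 20 were higher in M, 4 were lower and 19 were not called, and none was removed by the filter on low values. The 4 lower genes became 2, and the 3 lower hydrolase and cofactor genes among them 1, without M 3, without control 3 or with quantile normalization. In bulk RNA, fewer cells of a type and less RNA per cell cannot be told apart. In the background of all tested genes 21.2% were higher and 21.9% lower. Among tested genes averaging at least 10 FPKM, the range in which most of the 43 lie, 23.2% were higher and 23.3% lower. By class, 11 of 16 pump genes were higher and 1 lower, 2 of 7 membrane genes were higher and 0 lower, and 7 of 20 hydrolase and cofactor genes were higher and 3 lower. The median log2 fold change (M minus control, on log2(FPKM + 1)) was 0.23 for the pump, 0.03 for the membrane proteins and 0.09 for the hydrolases, against -0.0057 over all tested genes. The changes were small: the 20 genes called higher had a median log2 fold change of 0.31, and 3 genes stood out with changes of 0.81 (Gla), -1.02 (Atp6v0d2) and -1.32 (Arsb).

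**Figure D1:**
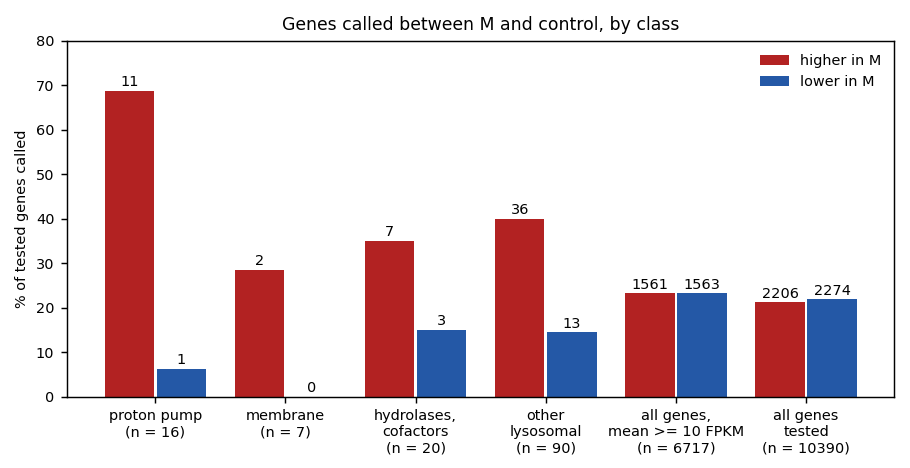
Share of tested genes called higher (red) or lower (blue) in M at a limma adjusted p under 0.05, with the number of genes above each bar. The pump has 11 genes higher and 1 lower, whereas all tested genes split almost evenly, with 2206 higher and 2274 lower.

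**Figure D2:**
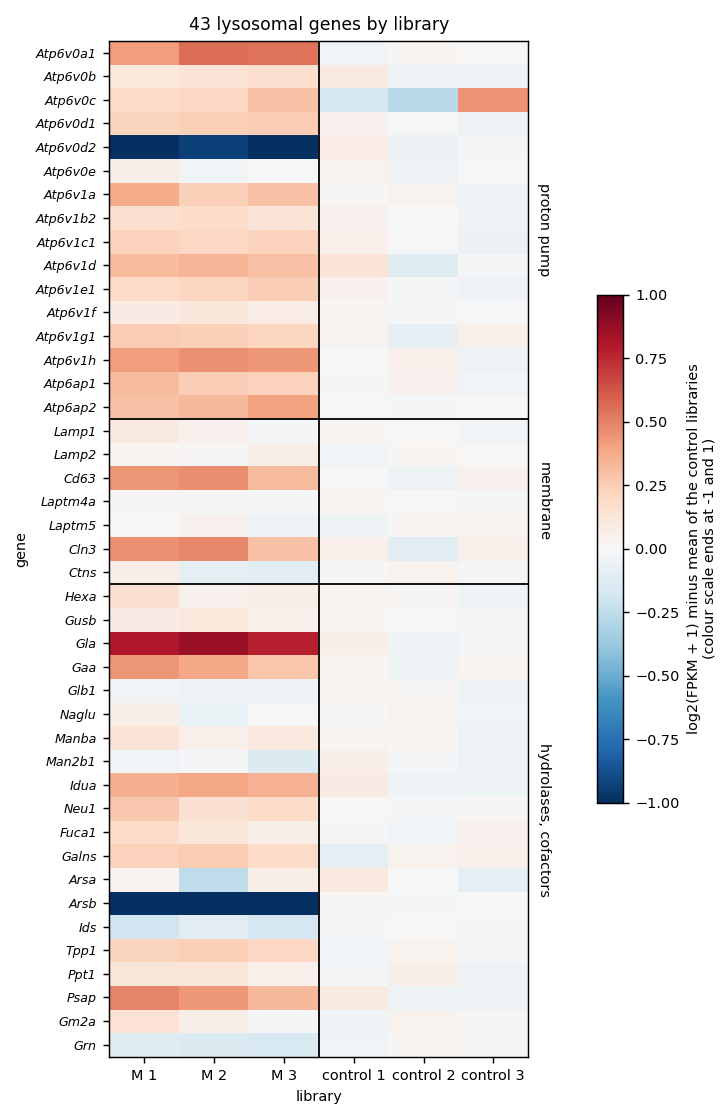
Each row is a gene and each column a library, coloured by log2(FPKM + 1) minus the mean of the control libraries, with the scale ending at -1 and 1. The 3 M libraries share the red pump rows, the strong red of Gla and the strong blue of Atp6v0d2 and Arsb, and control 3 stands apart for Atp6v0c.

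In the V1 sector, the part that splits ATP, 7 of 8 subunit genes were higher in M, against 21.2% of all tested genes. In all 8 every M library lay above every control library (27.6% of all tested genes did so). Over the 43 genes, all M libraries lay above all control libraries in 26 and below them in 4, against 27.6% and 28.1% of tested genes. The V1 genes summed to 762, 748 and 748 FPKM in M 1 to 3, against 652, 632 and 627 in control 1 to 3. Atp6v1h, the regulatory H subunit (ENSMUSG00000033793), had 55.1, 56.7 and 55.7 FPKM in M and 40.8, 42.5 and 39.5 in control. This was the largest change of the sector, with no overlap between groups (log2 fold change 0.44 ± 0.039 SE, adjusted p = 9.19e-05). The gain lay mostly in transcript ENSMUST00000192698, with 20.8, 23.5 and 27.3 FPKM in M against 11.4, 15.0 and 10.4 in control (0.91, adjusted p = 0.0160 over all transcripts). Transcript ENSMUST00000044369, on average the larger one, showed -0.04 (adjusted p = 0.859), so the direction for Atp6v1h turned when that transcript alone was taken.

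Atp6v1d, a subunit of the central shaft that couples the sectors, had 54.2, 55.1 and 53.3 FPKM in M and 47.7, 39.6 and 42.8 in control (0.32 ± 0.064, adjusted p = 0.00527). Atp6v1a, the catalytic A subunit where ATP is split, had 192, 175 and 182 FPKM in M and 149, 152 and 144 in control (0.30 ± 0.047, 0.00162). It was the most abundant V1 gene, and no M library fell to the control range. The promoter of Atp6v1a shown above holds TCACGTGA upstream of the start. With its most abundant transcript alone the value was 0.72 and the call was lost (adjusted p = 0.201). Its called neighbours in the sector were Atp6v1g1 (0.24), Atp6v1c1 (0.22), Atp6v1e1 (0.22) and Atp6v1b2 (0.16, adjusted p = 0.0119), which encode stalk subunits G and E, the linking C subunit and the B subunit of the catalytic ring. The Atp6v1b2 call was lost with quantile normalization (0.0690) and without M 2 (0.0503). Atp6v1f, a shaft subunit, was not called at 0.09 (95% interval 0.01 to 0.17, adjusted p = 0.0618).

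The V0 sector, which carries the protons, was less uniform, with 2 of 6 subunit genes higher (33.3%) and 1 lower (16.7%). Over all tested genes 21.2% were higher and 21.9% lower, so with 6 genes these counts were near the background. Atp6v0a1 (ENSMUSG00000019302), one of the alternative a subunits through which protons pass, had 30.2, 33.5 and 33.1 FPKM in M and 22.0, 22.8 and 22.4 in control. It had the largest increase of the pump, with M well clear of control (0.51 ± 0.049, adjusted p = 1.29e-04). The other a subunits did not pass the test: Tcirg1 (a3, the lysosomal form known from osteoclasts) averaged 133 ± 6.79 FPKM in M and 143 ± 9.92 in control, and Atp6v0a2 averaged 17.7 ± 0.699 in M and 16.5 ± 0.598 in control (SD, n = 3). Tcirg1 was thus the most abundant a subunit gene in both groups, and Atp6v0a4 was listed at 0 in every library.

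The d subunit, which links V0 to the shaft, is encoded by Atp6v0d1 in most cells and by Atp6v0d2 in osteoclasts and some macrophages, and these genes moved in opposite directions. Atp6v0d2 (ENSMUSG00000028238) had 1.26, 1.55 and 1.37 FPKM in M and 4.13, 3.69 and 3.80 in control. M libraries held 0.360 of the control level and the groups were far apart (log2 fold change -1.02 ± 0.079 SE, adjusted p = 4.54e-05). At this low level the log2 fold change depended on the pseudocount, at -1.41 with 0.1 and -0.47 with 5, and it was called under both. Atp6v0d1 had 96.0, 97.1 and 97.8 FPKM in M and 84.6, 82.2 and 79.2 in control (0.24 ± 0.037, 0.00152), again without overlap. Its shown promoter stretch has TCACGTGA across the start site. Atp6v0d2 made up 1.30%, 1.57% and 1.38% of the d subunit FPKM in M and 4.66%, 4.29% and 4.57% in control (difference -3.09 percentage points, exact permutation p = 0.1, two-sided, the smallest that 3 libraries against 3 can give). Of 10 osteoclast markers, 4 averaged at least 1 FPKM. The list summed to between 57.3 and 58.5 FPKM in M and between 65.8 and 67.2 in control, Of those 4, Nfatc1 was lower (-0.44, adjusted p = 2.38e-04), Acp5 was higher (0.19, 0.0495), and Dcstamp (-0.14, 0.124) and Tnfrsf11a (-0.06, 0.254) were not called. The other 6 were under 1 FPKM and were not tested. Among them every M library lay above every control library for Ocstamp (mean 0.479 FPKM in M and 0.192 in control), Mmp9 (0.265 in M and 0.0874 in control) and Itgb3 (0.127 in M and 0.0360 in control). Oscar lay below in every M library (0.0169 in M and 0.0697 in control), Ctsk overlapped (0.557 in M and 0.660 in control) and Calcr was listed at 0. Their part in the change of Atp6v0d2 was not tested.

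The ring and small subunits of V0 did not pass the test. Atp6v0b, which encodes the c″ ring subunit, had 191, 194 and 199 FPKM in M and 188, 171 and 173 in control (0.13 ± 0.049, adjusted p = 0.0568). M stayed above control in every library, and the gene was called with median-of-ratios scaling (0.0462), with quantile normalization (0.0299) and without control 1 (0.0212). Atp6v0e had a log2 fold change of 0.01 (95% interval -0.08 to 0.10), which turned to -0.03 with quantile normalization.

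Atp6v0c encodes the proteolipid that forms most of the ring, and it had 186, 189 and 199.9 FPKM in M and 145, 134 and 223 in control. Control 3 lay above every M library and the other controls lay below them all (0.23 ± 0.198, adjusted p = 0.391). Without control 3 the gene was called higher (0.46, adjusted p = 0.00114). The split between its transcripts also varied by library: ENSMUST00000024932 had 86.2, 94.5 and 94.0 FPKM in M and 67.2, 129 and 214 in control, while ENSMUST00000098862 had 83.1, 86.4 and 99.0 in M and 71.1, 1.24 and 8.65 in control. The annotation lists pseudogenes of Atp6v0c, so its reads may be shared with near-identical copies and its level is uncertain. Atp6v1a showed a like split, with ENSMUST00000114666 at 22.9, 9.06 and 26.8 FPKM in M and 8.85, 24.8 and 88.8 in control, but its gene sum was steady. Without Atp6v0c and Atp6v1a, a count added after seeing the data, 10 pump genes were higher and 1 lower. The fit itself was unchanged, so this count follows from the calls of these genes and tests nothing further.

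**Figure D3:**
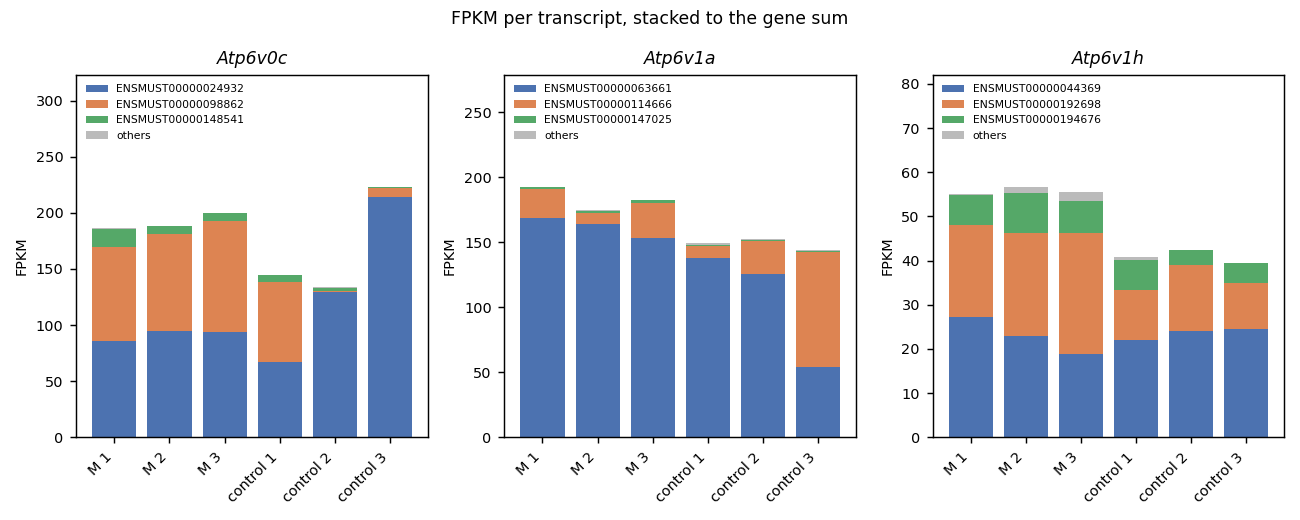
FPKM per transcript, stacked to the gene sum, in each M library and each control library. The split of Atp6v0c and Atp6v1a differs between libraries of the same group: control 2 and control 3 stand apart from control 1 for Atp6v0c, and control 3 stands apart for Atp6v1a. In the last panel, most of the extra Atp6v1h of the M libraries lies in ENSMUST00000192698.

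Both accessory proteins of the pump were higher in M. Atp6ap2 (the prorenin receptor, which takes part in assembling V0) had 80.6, 82.3 and 86.9 FPKM in M and 65.8, 65.1 and 65.9 in control (0.34 ± 0.039, adjusted p = 3.23e-04). Atp6ap1 (Ac45) had 85.8, 81.9 and 80.8 FPKM in M and 68.2, 70.8 and 67.5 in control (0.26 ± 0.039, 0.00123). Neither gene's groups overlapped. Over the 16 pump genes the sum was 1544, 1531 and 1552 FPKM in M and 1339, 1284 and 1368 in control, so the M libraries carried 1.16 times the control level.

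**Figure D4:**
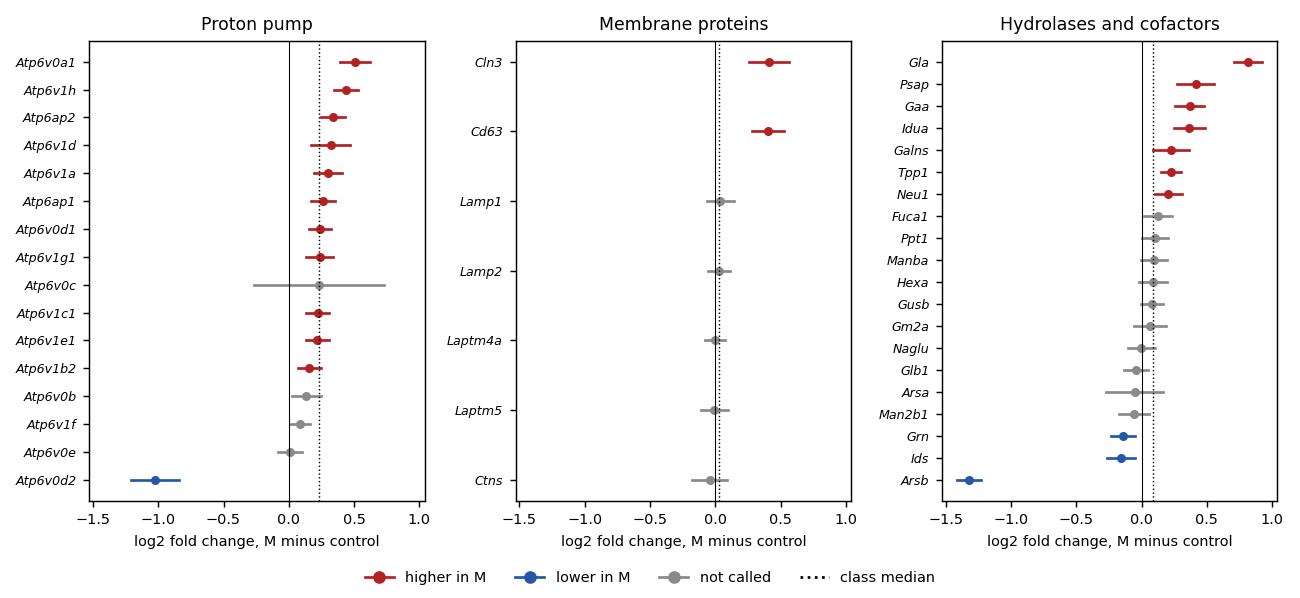
Log2 fold change of each gene, M minus control, with its 95% interval from limma, for the 3 classes (red, called higher in M; blue, called lower; grey, not called; dotted line, class median). Pump genes cluster around 0.23 apart from Atp6v0d2, and Gla and Arsb mark the ends of the hydrolases at 0.81 and -1.32.

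Of the 7 membrane protein genes Cd63 and Cln3 rose, and the most abundant ones were not called. Lamp1, a major glycoprotein of the lysosomal membrane (ENSMUSG00000031447), had 488, 472 and 454 FPKM in M and 466, 459.6 and 451 in control. The groups overlapped (0.04, 95% interval -0.07 to 0.14, adjusted p = 0.523). Its promoter stretch holds 4 copies of CACGTG. Lamp2, needed for fusion with autophagosomes, averaged 193 ± 3.13 FPKM in M and 189 ± 3.41 in control (0.03, interval -0.06 to 0.12). Its transcripts kept their proportions, with ENSMUST00000061755 at 124 FPKM in M and ENSMUST00000016678 at 67.4, neither called. Laptm5, a transmembrane protein of blood cell lysosomes, had 392, 405 and 379 FPKM in M and 381, 399.7 and 399.9 in control, with overlap (-0.0062, interval -0.11 to 0.10). Laptm4a (-0.0056, interval -0.08 to 0.07) and the cystine exporter Ctns (-0.04, interval -0.18 to 0.09) were not called either. With quantile normalization, Lamp1 (0.23, adjusted p = 0.00705) and Laptm5 (0.14, 0.0423) were called higher, making 4 of 7, so the calls of these abundant genes depend on the scaling.

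Cd63, a tetraspanin of lysosomes and of exosomes (ENSMUSG00000025351), had 323, 328 and 297 FPKM in M and 239, 229.6 and 246 in control. Every M library exceeded every control library (0.41 ± 0.052, adjusted p = 5.65e-04). Cln3, a membrane protein lost in a childhood neuronal storage disease, had 34.3, 34.9 and 30.6 FPKM in M and 25.7, 23.0 and 25.7 in control (0.41 ± 0.066, 0.00181), also without overlap. Cln3 is spread over many transcripts and none of them was called alone, so its call was lost when the most abundant transcript was taken (0.23, adjusted p = 0.286). The promoter of Cln3 above was the only one of the 37 available with TCACGTGA between a G and a C.

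Among the glycosidases, which remove sugars from glycolipids, glycoproteins and glycosaminoglycans, 4 of 11 were higher (36.4%) and 0 lower. Over all tested genes 21.2% were higher and 21.9% lower. Gla, alpha-galactosidase A, which clears globotriaosylceramide and is deficient in Fabry disease (ENSMUSG00000031266), had 25.5, 26.6 and 25.1 FPKM in M and 14.9, 13.8 and 14.0 in control. M held 1.81 times the control level, the largest increase of the 43 genes (0.81 ± 0.047, adjusted p = 1.22e-05). The promoter of Gla carries TCACGTGA at 2 places in the stretch above. Gaa, the acid alpha-glucosidase that digests lysosomal glycogen, had 76.0, 73.3 and 68.1 FPKM in M and 56.6, 54.3 and 56.7 in control (0.37 ± 0.048, 6.02e-04). It is split over several transcripts, and the most abundant one alone was not called (0.19, adjusted p = 0.181). Idua, alpha-L-iduronidase of dermatan and heparan sulfate breakdown, had 14.6, 14.9 and 14.5 FPKM in M and 11.9, 10.9 and 10.8 in control (0.36 ± 0.051, 8.82e-04). In all 3 genes the groups were apart. The sialidase Neu1 was the remaining called glycosidase (0.20, adjusted p = 0.00691).

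The glycosidases that were not called lay close to the control level. Hexa, which takes part in cleaving ganglioside GM2, had 371, 345 and 347 FPKM in M and 341, 337 and 324 in control (0.08, interval -0.02 to 0.19, adjusted p = 0.182), and it was called with quantile normalization (0.22, 0.0156). Fuca1, Manba and Gusb, which remove fucose, beta-mannose and glucuronic acid, had log2 fold changes of 0.12, 0.09 and 0.08. Naglu, Glb1 and Man2b1, which act on alpha-N-acetylglucosamine, beta-galactose and alpha-mannose, had -0.0039, -0.04 and -0.06. Fuca1 was called without M 3 (0.15, adjusted p = 0.0475).

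The sulfatases, which take sulfate off glycosaminoglycans and sulfatide, went in different directions. Of these 4 genes, 1 was higher (25%) and 2 lower (50%), against 21.2% and 21.9% of all tested genes. Only the call of Arsb held under every alternative processing. Arsb, arylsulfatase B, which acts on dermatan sulfate and chondroitin sulfate (ENSMUSG00000042082), had 18.6, 17.6 and 18.6 FPKM in M and 47.5, 46.8 and 47.1 in control. M libraries held 0.388 of the control level, the largest decrease of the 43 genes, from 1 transcript and with the groups far apart (-1.32 ± 0.039, adjusted p = 4.82e-07). Galns, which removes sulfate from keratan sulfate and chondroitin sulfate, had 7.98, 8.16 and 7.76 FPKM in M and 6.21, 6.85 and 6.96 in control (0.23 ± 0.059, 0.0169). The Galns call was lost without M 2 (0.0576) or control 1 (0.0530). Ids, iduronate sulfatase, had 10.99, 11.8 and 11.3 FPKM in M and 12.6, 12.9 and 12.9 in control. That small decrease (-0.16 ± 0.046, 0.0239) was lost without M 1 (0.0625), M 3 (0.0654), control 2 (0.0597) or control 3 (0.0672), with quantile normalization (0.0524) and with the most abundant transcript (0.0580). Arsa, which acts on sulfatide, was not called (-0.05, interval -0.27 to 0.16).

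Among the cofactors and other hydrolases, Psap had the largest change. Psap, the precursor of the saposins that present sphingolipids to their hydrolases (ENSMUSG00000004207), was the most abundant of the 43 genes in M, with 588, 567 and 525 FPKM in M and 447, 405 and 409 in control. M held 1.33 times the control level without overlap (0.41 ± 0.061, adjusted p = 0.00115). Grn, the progranulin precursor of lysosomal granulins, had 459, 452 and 450.5 FPKM in M and 490.05, 507 and 504 in control, and it was the most abundant of the 43 in control. The decrease of Grn was slight (-0.14 ± 0.040, 0.0232). It turned to 0.03 with quantile normalization and lost its call without M 2 (0.0887), M 3 (0.0711) or control 3 (0.0579). Tpp1, tripeptidyl peptidase, had 81.2, 82.0 and 80.5 FPKM in M and 68.3, 71.1 and 68.9 in control (0.22 ± 0.034, 0.00135). Ppt1, a thioesterase that removes palmitate from proteins, had 0.10 (adjusted p = 0.0924), and it was called without control 2 (0.0471). Gm2a, the activator that presents ganglioside GM2 for cleavage, had 0.06 (adjusted p = 0.366).

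Other lysosomal genes were set beside the 43. Of 100 listed, 90 were tested, and 36 were higher (40%) and 13 lower (14.4%), against 21.2% and 21.9% of all tested genes. Among other hydrolases and cofactors 13 of 36 were higher (36.1%) and 7 lower (19.4%), so the share lower was near that of all tested genes. Lipa, acid lipase (1.09), the phospholipase D family member Pld3 (0.47) and the thioesterase Ppt2 (0.47) had the largest increases of that list. The uncovering enzyme Nagpa (-0.31) and the carboxypeptidase Prcp (-0.30) were among the lower genes. The calls of Ppt2 (adjusted p = 0.449) and Nagpa (0.517) were lost with the most abundant transcript.

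Of 27 other membrane protein genes tested, 15 were higher (55.6%) and 2 lower (7.41%), against 21.2% and 21.9% of all tested genes. Slc11a1 (NRAMP1, the phagosomal metal transporter) had 144, 149.5 and 148 FPKM in M and 31.5, 31.1 and 30.4 in control. Its groups were far apart, at 4.75 times the control level (2.21 ± 0.035, adjusted p = 1.49e-08). Laptm4b, a relative of Laptm4a and at a low level, averaged 2.85 ± 0.357 FPKM in M and 1.18 ± 0.105 in control (0.82, adjusted p = 2.90e-04, n = 3), and the cobalamin transporter Abcd4 had 0.70 (3.24e-05). The endolysosomal cation channel Tpcn1 (-0.74, adjusted p = 1.60e-05) and the nucleoside transporter Slc29a3 (-0.27, 0.0216) were lower. The Slc29a3 call was lost without M 3 (0.0713), control 1 (0.0729) or control 2 (0.0656).

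**Figure D5:**
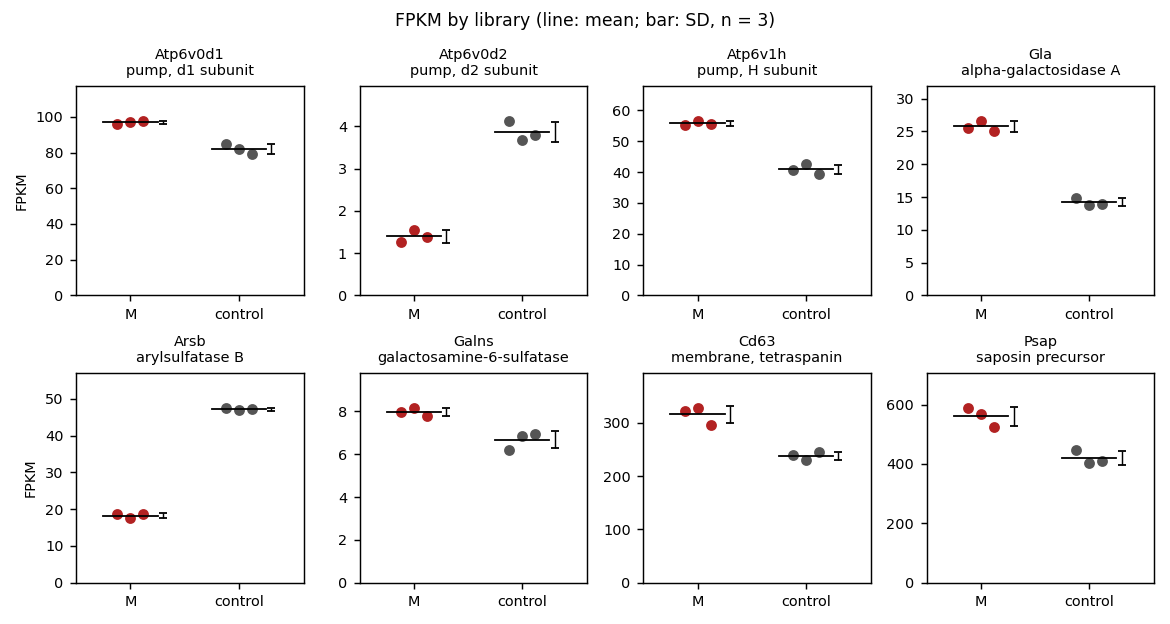
FPKM in each M library (red) and each control library (grey) for 8 genes, with the mean (line) and SD (bar, n = 3). Atp6v0d2 and Arsb are lower in M, and Atp6v0d1, Atp6v1h, Gla, Galns, Cd63 and Psap are higher, with no overlap between groups in any panel.

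Windows were present for 37 of the 43 genes in the promoter table, with Atp6v0d2, Atp6v1b2, Atp6v1c1, Atp6v1g1, Atp6v1h and Galns absent from it. Motifs were searched on both strands of the 300 bases. CACGTG was found in 11 of the 37 genes (29.7%), against 12.3% of 7977 tested genes with a window and 8.09% of all 27025 genes with one. Of these 11, 5 were higher in M (Atp6v0d1, Atp6v1a, Cln3, Gla and Gaa), 0 were lower and 6 were not called (Atp6v0b, Atp6v0e, Lamp1, Glb1, Naglu and Arsa). Of the 26 without it, 10 were higher and 3 lower. Over all tested genes with CACGTG, 25.6% were higher and 17.5% lower.

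TCACGTGA, which contains CACGTG, was found in 5 of the 37 (13.5%), against 2.34% of tested genes and 1.12% of all genes. Of those 5, only Atp6v0e was not called and the rest were higher. Of the 32 without it, 11 were higher and 3 lower. Over all tested genes with TCACGTGA, 23.5% were higher and 15.5% lower. TCACGTGA between a G and a C was found in Cln3 alone, against 0.915% of tested genes. TGACNNNGC, the core of the antioxidant response element bound by NRF2, was found in 7 of the 37 (18.9%) and in 17.2% of tested genes. A match is only a match of letters.

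At the level of single transcripts, 83 of the 110 transcripts of the 43 genes were tested, of which 17 were higher and 4 lower. In the background of all 16851 tested transcripts, 9.18% were higher and 9.56% lower. Without M 2 the counts for the 43 genes were 11 and 2, and without M 3 they were 10 and 2. For 34 genes 1 transcript supplied over 90% of the sum. Protein-coding genes overlap 7 of the 43 in the RefSeq annotation, among them Cap1 (314 FPKM) with Ppt1, Trappc2l (27.3) with Galns, Apobr (20.6) with Cln3 and Dgkq (5.68) with Idua, and the sources used here do not say whether counting used strand, so reads of these pairs may not be separable.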

How the data were processed

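Trizol extraction and Illumina TruSeq libraries from total RNA are recorded per the labels' protocols. The authors deposited FPKM per transcript for 3 M and 3 control libraries. The submitters' processing notes name the build mm9. Aligner, quantifier, annotation release and filters were not given in the sources used here. FPKM hold no counts, so depth in reads is unknown and no intervals for counting error are given. An lncRNA table was not used.

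The FPKM of 50687 transcripts were summed to 21912 symbols. Those averaging 1 FPKM or more (10390) were tested as log2(FPKM + 1) in a linear model with no covariates (limma 3.58.1, R 4.3.3; moderated by a robust eBayes with a trend, two-sided), adjusted by Benjamini-Hochberg over all genes and called under 0.05. Transcripts were tested likewise. Fold changes on this scale understate the change of low genes. Only the linear model was tested on simulated data, with independent noise and far fewer changed genes than were called here. The 43 genes, the other lists and the rules were chosen with earlier results of these data known. Per-library values are given, in each class, for up to 6 called genes per direction with the largest fold change and the 2 most abundant, and of the other lysosomal lists up to 3 genes per direction are named; 1 gene that this rule names is not reported here. Genes named beyond this were chosen after their values were seen. Alternatives were pseudocounts of 0.1 and 5, no filter, other scalings, the most abundant transcript, plain eBayes, a replicate block and each library left out.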

Additional observations from a re-analysis of the deposited data

How the results depend on the processing

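Of the 24 called genes, 16 were called under all 14 alternatives; Atp6v1a, Atp6v1b2, Atp6v1h, Cln3, Gaa, Galns, Ids and Grn were not. With quantile normalization 2 of the 43 genes were lower, the pump median log2 fold change was 0.19, 4 membrane genes were higher with a median of 0.14, and 1 hydrolase gene was lower. With the most abundant transcript 1 membrane gene was higher. Leaving out each library in turn gave 2 to 4 genes lower, 1 to 3 hydrolase genes lower, 10 to 14 member transcripts higher and 2 to 4 lower. Same-numbered libraries hardly deviated together from their group means (r = 0.0664, 0.00520 and -0.0347). M 1 matched its own number best, while M 2 and M 3 did not. With 3 libraries per group this cannot decide whether the numbers pair them. With the replicate block 9 member transcripts were higher and 2 lower, and Grn was no longer called (limma adjusted p = 0.0609).

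The direction turned with the most abundant transcript for Atp6v0c (-0.42), Atp6v1h (-0.044) and Sort1 (-0.66), and with quantile normalization for Atp6v0e (-0.031), Laptm5 (0.14) and Grn (0.033). With median-of-ratios scaling it turned for Laptm4a (1.47e-04) and Naglu (0.00173). Leaving out each library in turn gave log2 fold changes of both signs for uncalled genes: -0.109 to 0.045 for Arsa, -0.0138 to 0.0289 for Atp6v0e, -0.0138 to 0.00338 for Laptm4a, -0.0301 to 0.0174 for Laptm5 and -0.0333 to 0.0279 for Naglu. The cause was not tested. FPKM carry no read depth, so precision rests on 3 libraries per group.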

Other observations

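Genes that deliver enzymes to the lysosome were also read from the same fit. Of 16 delivery genes, 6 were higher in M (37.5%) and 3 lower (18.75%), against 21.2% and 21.9% of all tested genes. M6pr, the cation-dependent mannose 6-phosphate receptor that carries new hydrolases, had 88.9, 93.5 and 90.7 FPKM in M and 70.6, 70.9 and 75.3 in control (log2 fold change 0.33, limma adjusted p = 4.55e-04). The groups did not overlap. Sort1 (sortilin, an alternative sorting receptor) had 7.03, 7.26 and 6.01 FPKM in M and 4.99, 4.84 and 5.10 in control (0.37, 0.00505), and the adaptor subunit Ap3s1 had 0.24. With its most abundant transcript alone Sort1 showed -0.66 (adjusted p = 0.347). Gnptab, which encodes the enzyme that builds the mannose 6-phosphate tag, had 21.4, 20.2 and 20.7 FPKM in M and 25.6, 25.1 and 23.4 in control (-0.24, 0.00537), with every M library below every control library. The adaptors Gga3 (-0.22) and Ap1m1 (-0.13) were lower too. The Gga3 call was lost without M 2 (0.0537), without M 3 (0.0515) and with the most abundant transcript (0.0503), and the Ap1m1 call without M 2 (0.0779) or control 3 (0.0724).

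Of 11 tested genes for other pump isoforms and pump assembly, 2 were higher (18.2%) and 1 lower (9.09%). Neither share exceeded that of all tested genes (21.2% higher, 21.9% lower). Tmem199, an assembly factor, had 0.40 (adjusted p = 3.10e-04). Of the rabconnectins, which help V1 join V0, Dmxl2 was higher (12.3 ± 0.131 FPKM in M and 9.15 ± 0.343 in control, SD, n = 3; 0.39, adjusted p = 4.75e-04) and Dmxl1 was lower (19.1 ± 0.434 in M and 21.4 ± 0.819 in control; -0.15, 0.0246). The Dmxl1 call was lost without M 1 (0.0651), M 2 (0.0651) or control 2 (0.0720). That these paralogs moved in different directions was seen after the values were known. The isoform genes Atp6v0a4, Atp6v1b1, Atp6v1e2 and Atp6v1g3 were listed at 0 in all 6 libraries.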
